A study of Ogataea polymorpha NCYC 495 leu1.1 with 8 samples.

Results

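The genes that were most strongly repressed when H. polymorpha was moved to methanol were taken as a group. H. polymorpha (also called Pichia angusta or Ogataea polymorpha) is a yeast that can live on methanol as its only source of carbon and energy. Each array set RNA of methanol cells against RNA of glucose cells of the same culture. The methanol cells had spent 2 hours at 37 °C in fresh mineral medium with 0.5% methanol, at an OD660 of 0.2 at the start. The glucose cells came from the batch culture before the shift, in late exponential phase at an OD660 of 2.3. Both were strain NCYC 495 leu1.1, a leucine auxotroph, and 4 independent cultures were used. Carbon source, cell density and the age of the medium changed together, so that their parts in a difference cannot be told apart.

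A gene belongs to the group when its mean log2 ratio of methanol over glucose was at or below the limit for a 10-fold fall and its A-value, the mean log2 signal of both channels, was at least 6. The hexokinase gene Hp25g374 meets both limits but is left out by definition. The group then has 196 of the 5999 genes on the array, and with hexokinase 3.28% of all genes met the limits. The genes were thus chosen by the measured ratios and signals themselves, which are given below as a description, and no test of them is offered as support.

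Transfer from glucose to a poorer carbon source makes S. cerevisiae, the best studied yeast, slow its growth. Genes for making ribosomes and proteins, which are transcribed very strongly during growth on glucose, are known there to fall within minutes to hours of such a change. A methylotrophic yeast has in addition to build peroxisomes and the enzymes that oxidise and assimilate methanol. A low ratio on an array measures less RNA in the methanol cells relative to all RNA labelled, and it does not separate lower synthesis from faster decay.

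A description was used for 7 of the 196 genes, and the other 189 are given by their identifiers alone. The study's own annotation of all genes was held only in part and without these 189 genes, so that nothing follows from it about what they do. A separate list of the study, of downregulated genes without a homologue in S. cerevisiae, names 31 of the 196 genes. For most of these 31 it gave no description that was used here. The scanner files name no function for the gene probes, and 0 of the 5999 identifiers occur in the RefSeq annotation of the species. For its own set of the most strongly downregulated genes, the study reports that a large share act in transcription or translation. Which genes of the group belong to that share was not determined here. The 189 genes are therefore described by their values. Per the labels the RNA of each culture was labelled in both dye orientations, which gave 8 arrays. In each channel, between 91.3% and 98.6% of the probes for genes exceeded the background clearly by the scanner software's mark for well above background. Over all genes, as a description, the ratios of culture 1 correlated with those of the others by at most 0.934, whereas cultures 2, 3 and 4 correlated with each other by at least 0.968.

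**Figure D1:**
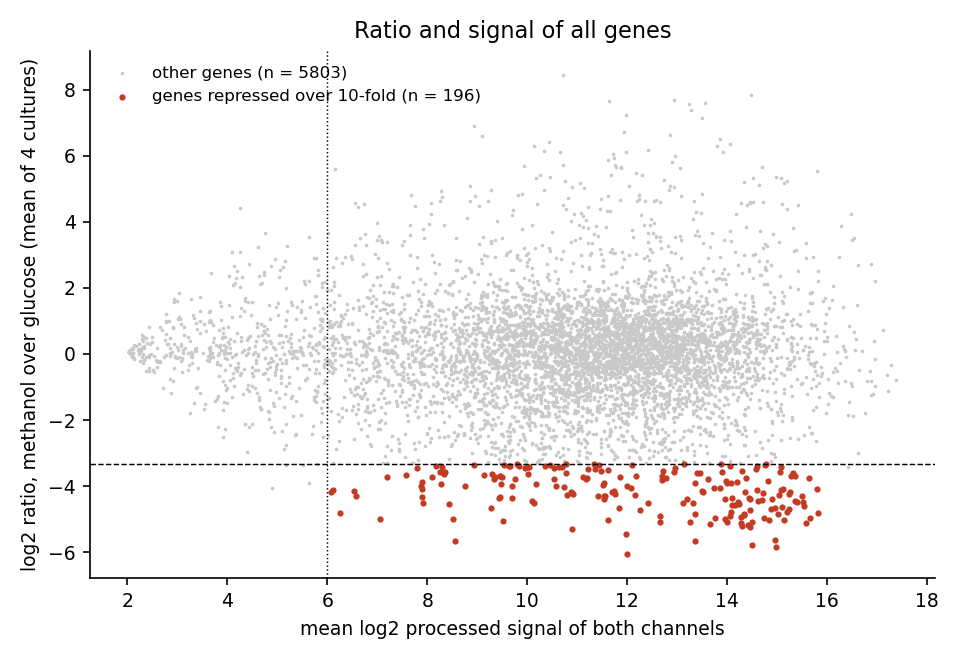
Mean log2 ratio of methanol over glucose against the mean log2 processed signal of both channels for all 5999 genes, each the mean of 4 cultures. The 196 genes of the group (red) lie below the dashed line (a 10-fold fall) and right of the dotted line (a mean log2 signal of 6), and they reach from a mean log2 signal of 6.08 to one of 15.83.

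By limma with Benjamini-Hochberg adjustment over all genes, 21.4% of the 5999 genes (1283) were called downregulated at a more than 2-fold change. All 196 genes of the group are among them, and since the same ratios chose them nothing is read from this. The median log2 ratio of the group was -4.12, a 17.3-fold fall, while it was -1.87 over the 1283 genes called downregulated and 0.04 over all genes. The processed signals on methanol, which follow from the same choice, lay below those on glucose in every culture without overlap for all 196 genes, and for 21.8% of all genes. Each of the 196 genes fell more than 2-fold in each of the 4 cultures. A fall to the 10-fold limit in every single culture was found for 117 of them. These 117 are all the genes with such a fall and an A-value of at least 6, which is 1.95% of the 5999 genes. A gene at the limit in every culture is also at it in the mean.

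Most of the falls were between 10- and 32-fold. A log2 ratio of -5 or lower, which is at least a 32-fold fall, was found for 24 genes. A further 85 genes fell 16- to 32-fold, and 87 genes fell less than 16-fold. The genes with the deepest falls also had brighter probes. The median A-value was 13.97 in the first of these classes, 13.75 in the second and 11.19 in the third. An A-value compares probes only roughly, because probes differ in how well they hybridise.

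The gene with the largest mean fall was Hp24g956, whose product strongly resembles Sik1p of S. cerevisiae. Sik1p, also called Nop56p, is a core protein of the box C/D small nucleolar ribonucleoproteins, which direct the methylation of ribosomal RNA in the nucleolus. The processed signal of Hp24g956 was 482, 494, 331 and 810 on methanol in cultures 1 to 4, against 32601, 27143, 28735 and 48426 on glucose. Its highest methanol signal was thus far below its lowest glucose signal, and culture 4 was the brightest in both channels. The log2 ratio was -6.08, -5.78, -6.44 and -5.90 in the 4 cultures, with a mean of -6.05 ± 0.29 (SD, n = 4). As a fold change it fell between 55.0- and 86.9-fold, and no other gene of the group fell over 50-fold in all 4 cultures. Its first place depended on the cultures used, since Hp25g91 was lower without culture 4 (-6.21, against -6.10 for Hp24g956) and in the slide row of cultures 1 and 2 (-6.26 against -5.93), where Hp6g206 was lowest (-6.48).

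No description was used for the next genes by size of the fall. Hp25g91 had signals of 1787, 5111, 3468 and 10766 on methanol, against 277345, 193463, 238397 and 280696 on glucose. Hp27g157 had 1439, 3782, 2154 and 8062 on methanol, against 197988, 136681, 161249 and 201551 on glucose. In both genes the glucose signals lay close together, while the methanol signals were lowest in culture 1 and several times higher in culture 4. Hp25g91 fell 155-fold in culture 1 but 26.1-fold in culture 4, and Hp27g157 had its largest fall in culture 1 (-7.10 on the log2 scale) and its smallest in culture 4 (-4.64). The mean log2 ratio of Hp25g91 was -5.83 ± 1.12 (SD, n = 4) and that of Hp27g157 was -5.79. The same order of the cultures was seen for Hp16g319 (-6.97, -4.60, -5.44 and -3.97 in cultures 1 to 4) and Hp8g283 (-6.02, -4.84, -5.44 and -4.51).

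Other genes among the 10 with the largest falls behaved differently between cultures. Hp35g91 had methanol signals of 97.4, 38.9, 26.7 and 77.1, against 2683, 1947, 2128 and 4566 on glucose. Its fall was smallest in culture 1 (-4.78) and largest in culture 3 (-6.31), and its methanol signal was well above background on 6 of 8 arrays only. Its mean log2 ratio of -5.66 became -4.41 when the raw signals were background-corrected by normexp and normalized by loess, and -4.65 when they were normalized by loess alone. Hp28g270 had methanol signals of 2015, 1143, 1076 and 1978, against nearly equal glucose signals of 76452, 72525, 76216 and 74787. Hp39g68 also had its smallest fall in culture 1 (-4.96), with -5.14, -5.64 and -5.40 in the other cultures. Hp8g465 (-5.64 ± 0.44) and Hp25g355 (-5.44 ± 0.54) had their smallest falls in culture 4.

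**Figure D2:**
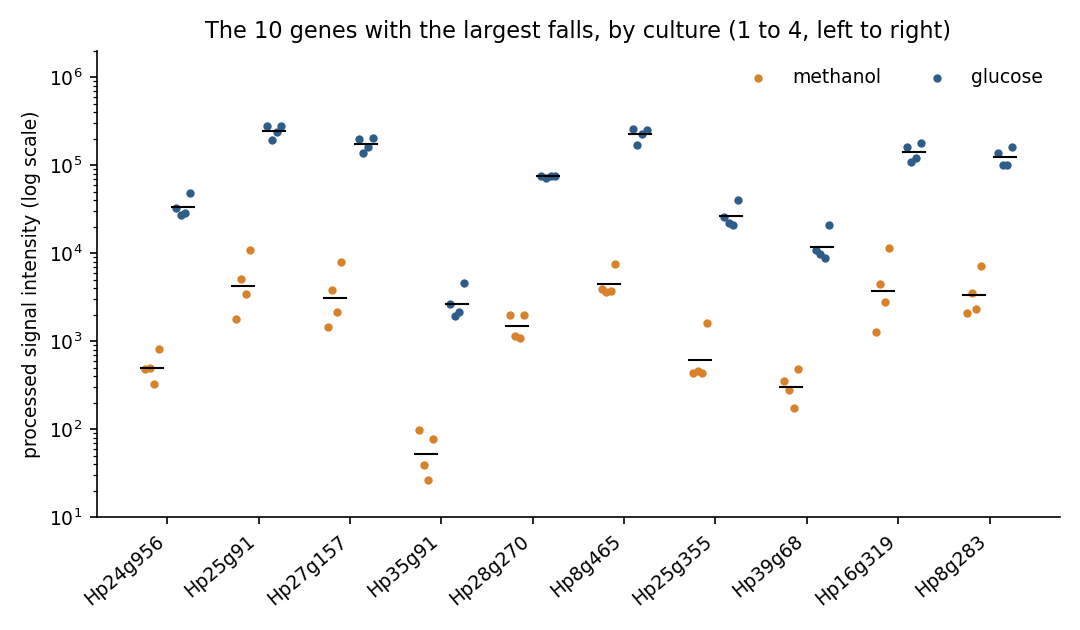
Processed signal intensity (log axis) of the 10 genes with the largest falls on methanol (orange) and on glucose (blue), with 1 point per culture from culture 1 at the left to culture 4 at the right and a bar at the geometric mean. The 2 sets of points are apart for every gene, and the methanol points of Hp25g91, Hp27g157 and Hp16g319 spread over a wider range than their glucose points.

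Besides Hp24g956, 6 genes of the group have a description, all from the study's list of downregulated genes without a homologue in S. cerevisiae. That list was drawn up from these same samples and is no independent evidence of a fall. It names 31 of the 196 genes (15.8%) and 275 of the 1086 other genes called downregulated here (25.3%).

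The product of Hp15g1009 strongly resembles a zinc-containing alcohol dehydrogenase of Streptococcus pneumoniae. Enzymes of this family interconvert alcohols and aldehydes. Its signal was 2361, 3129, 4074 and 7056 on methanol, against 160809, 97227, 80026 and 122483 on glucose. The log2 ratio was -4.87 ± 0.89 (SD, n = 4) and lay at -6.09 in culture 1, -4.96 in culture 2, -4.30 in culture 3 and -4.12 in culture 4. It was -5.52 in the slide row of cultures 1 and 2 and -4.21 in the row of cultures 3 and 4.

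Hp19g94 encodes a protein like the cytochrome P450 lanosterol demethylase of Candida tropicalis. This enzyme removes a methyl group from lanosterol on the way to ergosterol, the main sterol of yeast membranes. The signal of Hp19g94 was 5483, 5288, 5131 and 7547 on methanol, against 117155, 66010, 54113 and 91402 on glucose, so that the methanol signals were more alike than the glucose signals. The log2 ratio was -3.76 ± 0.45 (SD, n = 4), with the largest fall again in culture 1 (-4.42).

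The product of Hp44g27 resembles the D-amino acid oxidase DAO1 of Candida boidinii, another methylotrophic yeast. In that species the enzyme is peroxisomal and oxidises D-amino acids with release of hydrogen peroxide. Hp44g27 had signals of 455, 274, 164 and 361 on methanol, against 6596, 3625, 1876 and 4023 on glucose. Both channels were highest in culture 1 and lowest in culture 3, and the ratio hardly varied (-3.65 ± 0.18, SD, n = 4). After normexp and loess the mean ratio was -3.31, just outside the 10-fold limit, and after loess alone it was -3.39. The gene with the next number, Hp44g28, lay just outside the group, with log2 ratios of -3.39, -3.46, -3.31 and -3.12 in the 4 cultures.

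Hp48g47 encodes a protein like the peptide transporter MTD1 of the fungus Schizophyllum commune, a membrane protein for the uptake of short peptides. It had signals of 908, 293, 298 and 491 on methanol, against 15139, 7082, 5631 and 8011 on glucose, and a log2 ratio of -4.23 ± 0.26 (SD, n = 4). The last 2 described genes have no known function. Hp44g518, whose product resembles a hypothetical protein of Candida albicans, had the dimmest glucose signal of the group (366, 266, 221 and 319) and methanol signals of 10.3, 18.4, 9.0 and 45.4. Hp35g55 is described as a questionable open reading frame, but its probe was bright in both channels, with 11213, 10266, 8202 and 13612 on methanol, against 148773, 92189, 95302 and 131091 on glucose.

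The genes that the study names by pathway gave no further members. None of 27 ATG genes (autophagy), 25 PEX genes (peroxisome formation), 14 genes of beta-oxidation and 3 genes of methanol metabolism belongs to the group. Of 17 genes of glycolysis and gluconeogenesis, hexokinase alone met both limits, with a log2 ratio of -3.41 ± 1.86 (SD, n = 4).

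In 51.5% of the 196 genes the ratios of the highest and the lowest culture differed more than 2-fold. The median SD of the log2 ratio over the 4 cultures was 0.47 for the 196 genes, 0.31 for the other genes called downregulated, 0.39 for the 195 genes that rose over 10-fold and 0.25 for all genes with an A-value of at least 6. It lay above 1 for 21 genes of the group. The largest SD was that of Hp6g206, which had signals of 2371, 4379, 9712 and 46750 on methanol, against 369784, 224395, 309190 and 265418 on glucose. Its log2 ratio was -7.28, -5.68, -4.99 and -2.51 in cultures 1 to 4, so that culture 4 was outside the 10-fold limit. The mean of -5.12 ± 1.99 (SD, n = 4) became -4.39 without culture 1, -5.99 without culture 4 and -4.06 when the spot ratios were averaged on the linear scale, and it was -6.48 and -3.75 in the 2 slide rows. Hp1g102m (-4.47 ± 1.36) and Hp7g5 (-4.73 ± 1.32) followed, both with the largest fall in culture 1 and the smallest in culture 4, and without culture 1 Hp1g102m stood at -3.88. In the row of cultures 1 and 2 these genes were at -5.09 and -5.39, and in the row of cultures 3 and 4 at -3.85 and -4.08.

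Some genes had almost the same ratio in every culture. Hp5g275 had the smallest SD, with log2 ratios of -3.54, -3.71, -3.70 and -3.63, and its signals were 82.2, 65.1, 75.6 and 167 on methanol, against 956, 854, 984 and 2076 on glucose. After normexp and loess its mean ratio of -3.65 became -2.92, outside the 10-fold limit. Hp44g640 had -4.24, -4.19, -4.34 and -4.13, and Hp12g280 had -3.78, -3.67, -3.67 and -3.48. The mean of Hp12g280 also left the 10-fold limit, at -3.13 after normexp and loess and -3.25 after loess alone, while Hp44g640 stayed within it (-4.14 and -4.17). In these 3 genes culture 4 was the brightest in both channels.

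Culture 1 had the largest fall for 85 genes of the group (43.4%) and the smallest fall for 75 genes (38.3%), so that it was the extreme culture for 81.6%. Of all genes with an A-value of at least 6, 37.5% had their lowest ratio and 38.2% their highest ratio in culture 1, together 75.8%, and the shares of the group are near this background. The median log2 ratio of the group was -4.23, -3.96, -4.38 and -3.83 in cultures 1 to 4. The limit for a 10-fold fall was reached by 151 genes in culture 1, by 179 in culture 2, by 194 in culture 3 and by 159 in culture 4.

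Which way culture 1 departed went with the brightness of the probe. For a closer description the group was divided at A-values of 11 and 13, limits chosen after the values were seen. Of the 90 genes with an A-value of 13 and over, 64 (71.1%) had their largest fall in culture 1 and 9 their smallest. The lowest ratio was in culture 1 also for 54.5% of the other genes called downregulated and for 52.6% of all genes of this brightness. Of the 68 genes with an A-value under 11, 7 had their largest fall in culture 1 and 50 (73.5%) their smallest. The highest ratio was in culture 1 for 53.2% of the other genes called downregulated and 44.8% of all genes in this band, so that the rest of the array leaned the same way. The 38 genes between were divided, with 14 and 16.

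The medians show the size of the departures. In the bright genes the median log2 ratio was -5.06, -4.12, -4.68 and -3.73 in cultures 1 to 4, and culture 1 lay below the mean of the other cultures by a median of -0.86. In the dim genes it was -3.55, -3.90, -4.13 and -3.92, and culture 1 lay above the others by a median of 0.52. Across the 196 genes the A-value and the departure of culture 1 correlated with r = -0.57. The same correlation was -0.28 across the 1086 other genes called downregulated, -0.02 across the 195 genes that rose over 10-fold and -0.20 across all 5478 genes with an A-value of at least 6. These correlations are across genes measured on the same 8 arrays and are given as a description.

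**Figure D3:**
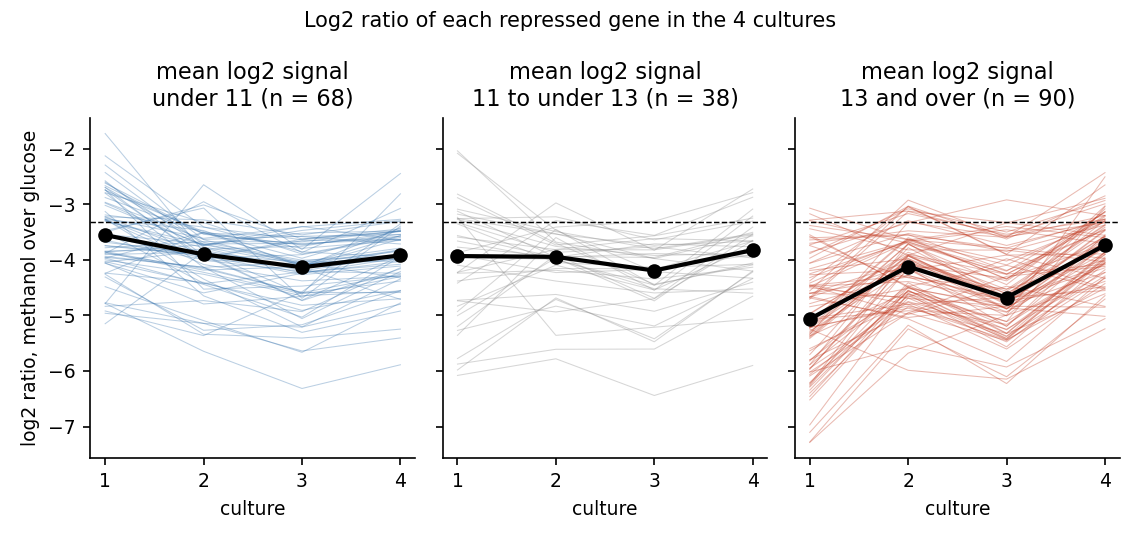
Log2 ratio of methanol over glucose of each gene of the group in cultures 1 to 4, in 3 bands of the mean log2 signal, where a thin line joins the values of a gene, the black line joins the medians and the dashed line marks a 10-fold fall. In the 90 bright genes the median was lowest in culture 1 (-5.06) and highest in culture 4 (-3.73), and in the 68 dim genes it was highest in culture 1 (-3.55).

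The full order of the cultures was shared by many genes. From the largest to the smallest fall, the order was culture 1, 3, 2, 4 in 53 of the 90 bright genes (58.9%). In the 213 other genes called downregulated with an A-value of 13 and over, this order was found for 32 (15.0%). In all 1255 genes of this brightness it was found for 149 (11.9%). Of the 68 dim genes, 25 (36.8%) had the order 3, 4, 2, 1, which was found for 123 of the 515 other genes called downregulated of the same brightness (23.9%). It was found for 242 of all 2279 genes with an A-value from 6 to under 11 (10.6%). These orders were also picked out after the values were seen.

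The departures of culture 1 were larger in one channel than in the other. To set cultures side by side, the median of all gene probes in a channel was taken off each log2 signal. On this scale the median of the bright genes on methanol was 0.20, 1.31, 1.07 and 1.77 in cultures 1 to 4, against 5.30, 5.48, 5.66 and 5.48 on glucose. Their methanol signal was lowest in culture 1 for 74 of 90 genes, and it was lower there than in the other cultures by a median of 1.09 (-1.09), while the glucose signal, lowest in culture 1 for 63 of 90 genes, was lower by a median of 0.25 (-0.25). The median of the dim genes on methanol was -3.88, -3.89, -3.64 and -3.40, against -0.27, 0.05, 0.32 and 0.53 on glucose. In these genes the glucose signal was lowest in culture 1 for 55 of 68 genes and lower by a median of 0.73 (-0.73), and the methanol signal was lowest there for 20 genes and lower by a median of 0.10 (-0.10). Other genes called downregulated leaned the same way. Of the 213 bright ones, the methanol signal was lowest in culture 1 for 128 and the glucose signal for 96. Of the 515 dim ones, the methanol signal was lowest there for 203 and the glucose signal for 333. Over all 1255 bright genes on the array these counts were 594 and 299. Over all 2279 dim genes with an A-value of at least 6 they were 743 and 775.

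**Figure D4:**
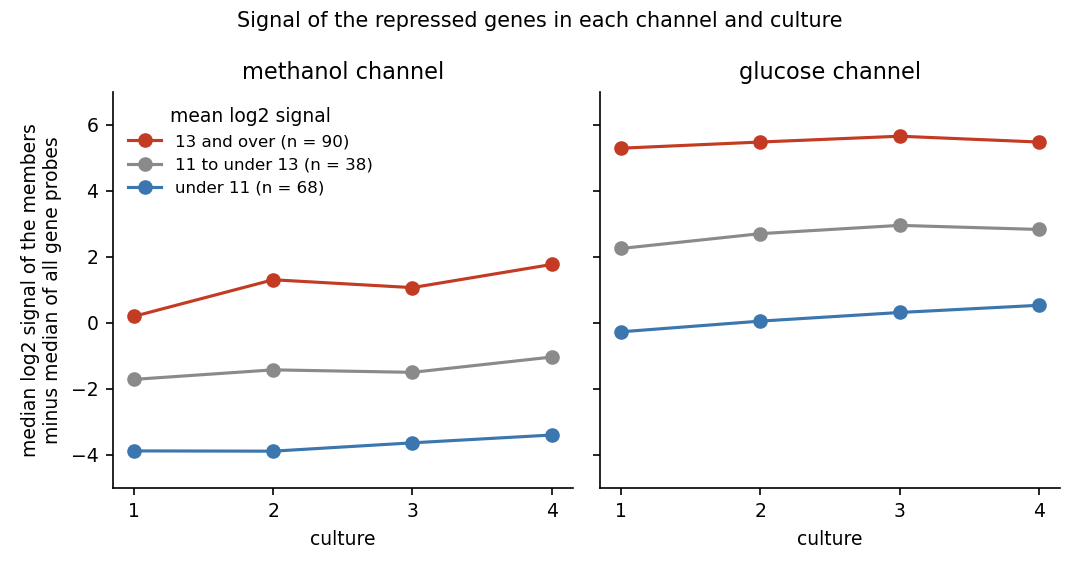
Median log2 signal of the repressed genes in the methanol channel (left) and in the glucose channel (right) in cultures 1 to 4, after taking off the median of all gene probes of that channel, for 3 bands of the mean log2 signal. The bright genes (red) were at 0.20 in culture 1 and at 1.07 to 1.77 in the other cultures on methanol, while the dim genes (blue) were at -0.27 in culture 1 and at 0.05 to 0.53 in the others on glucose.

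Single genes departed in both directions, though not always by the channel that the medians show. The largest departures of culture 1 towards a smaller fall were those of Hp32g184 (by 2.22) and Hp25g200 (by 1.98), which were singled out after their values were seen. Hp32g184 had signals of 848, 144, 136 and 228 on methanol, against 2804, 2093, 2425 and 3218 on glucose, and a log2 ratio of -1.73 in culture 1 and -3.82 to -4.16 in the others. Hp25g200 had 2649, 543, 589 and 996 on methanol, against 24924, 22284, 21829 and 33375 on glucose, with a ratio of -3.23 in culture 1 and -5.07 to -5.36 in the others. In these 2 genes the methanol signal of culture 1 was higher than in the other cultures. The mean log2 ratio of Hp32g184 was -2.79 in the slide row of cultures 1 and 2 and -3.99 in the other row. The largest departure the other way was that of Hp6g206 (-2.89), described above. By the barcodes of the arrays, and not by a sample label, cultures 1 and 2 shared one row of the slide and cultures 3 and 4 the other. Each row holds its own 2 cultures, so that position and culture cannot be told apart. The part of the position in the departure of culture 1 was not tested. The share of probes marked well above background was 97.6% to 98.6% in the channels of culture 1. It was 97.1% to 98.0% in those of culture 4 and 91.3% to 96.8% in those of cultures 2 and 3.

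The falls also depended on which dye carried which sample. The group fell further on the arrays with glucose in Cy5 for 168 of 196 genes (85.7%), while 43.6% of all genes with an A-value of at least 6 had the lower ratio on these arrays. With glucose in Cy5 the median log2 ratio of the group was -4.19, and with methanol in Cy5 it was -3.91 (4 arrays each). All 90 genes with an A-value of 13 and over fell further with glucose in Cy5, by a median difference of -0.66. The ratio was lower in this orientation also for 151 of the 213 other genes called downregulated of this brightness and for 773 of all 1255. In the 68 dim genes the median difference was -0.11. The genes that rose over 10-fold and were as bright showed a lower ratio with glucose in Cy5 as well, in 54 of 55 genes and by a median of -0.80.

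The largest such difference belonged to Hp39g445, which fell 51.0-fold with glucose in Cy5 but 18.9-fold with methanol in Cy5. This gene had saturated spots, and without them its mean log2 ratio of -4.96 became -4.79. Hp24g956 fell 75.8-fold and 57.9-fold in the 2 orientations, whereas Hp25g91 fell 89.0-fold and 36.5-fold. The largest fall with glucose in Cy5 was thus that of Hp25g91, and with methanol in Cy5 that of Hp24g956. In the mean of both orientations, which was used throughout, an even dye effect cancels.

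**Figure D5:**
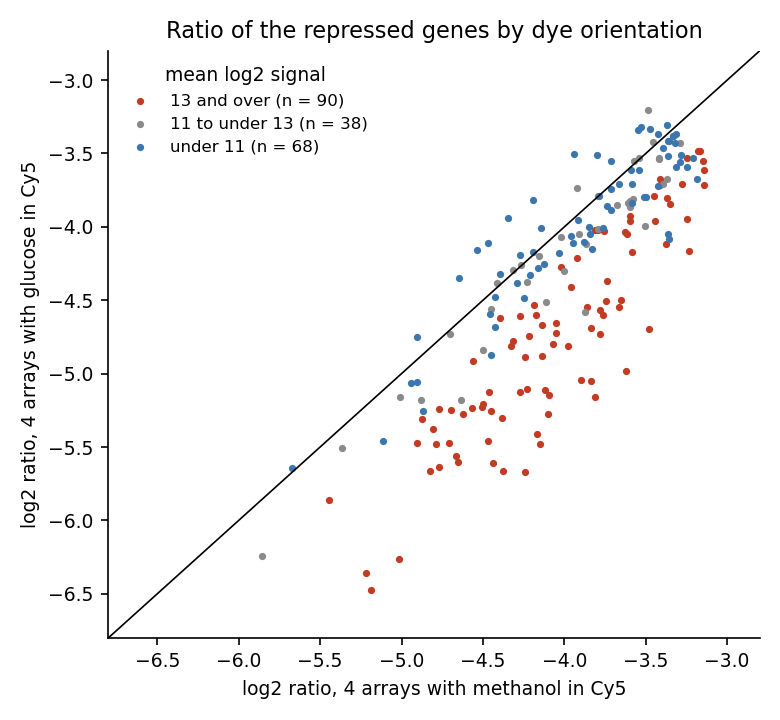
Log2 ratio of methanol over glucose of the 196 repressed genes from the 4 arrays with methanol in Cy5 (horizontal axis) and the 4 with glucose in Cy5 (vertical axis), with the line of equal ratios. All 90 genes with a mean log2 signal of 13 and over (red) lie below the line, and the 68 genes under 11 (blue) lie closer to it.

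The low methanol signals were still measurable for most of the group. On glucose all 196 genes were well above background on all 8 arrays. On methanol 176 genes were, and the other 20 genes were so on at least 3 arrays. These 20 genes had A-values of up to 8.55. As a second measure of background, the array carries 200 probes for genes of the bacterium Bacillus subtilis. Their median log2 signal was 2.57 in the methanol channel, and 95% of them lay below 4.18. The mean log2 methanol signal of 3 genes of the group was not above this level, and these were Hp47g584 (3.85), Hp19g33 (3.99) and Hp44g518 (4.06). After normexp and loess their log2 ratios were -2.62, -2.17 and -2.11 in place of -4.83, -4.18 and -4.11, so that all 3 left the group. On glucose every gene of the group was brighter than the brightest of these 200 probes (8.17 or more, against 7.35). A saturated spot occurred in 5 genes of the group, all with bright probes.

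The limits of the group cut through a continuous range of values. Just inside the limit for the ratio were Hp42g108 and Hp20g20 (both 10.05-fold) and Hp14g31 (10.01-fold). Just outside were Hp44g28 (9.98-fold), Hp47g75 (9.97-fold) and Hp32g201b (9.93-fold). With the lowest A-values inside were Hp19g33 (6.08), Hp44g518 (6.12) and Hp47g584 (6.26), and 5 genes with a sufficient fall were left out for their A-value, the nearest of them Hp2g169 (5.80), Hp47g837 (5.62) and Hp37g109 (5.51).

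Genes of the group were spread over many parts of the identifier numbering, and whether the numbers follow the order on the chromosomes was not checked. Neighbours by number were counted for each gene, so that a probe between 2 genes counts for both. Group genes had 168 such neighbours on the array, and 10 of them (5.95%) belong to the group themselves. Of the 4278 neighbours of other genes, 158 (3.69%) do. Called downregulated were 34.5% of the neighbours of group genes and 22.5% of those of other genes. The median log2 ratio of the 168 neighbours was -0.38. The 10 genes form 5 pairs, named here after their values were seen. In the pair Hp44g166 and Hp44g167 the falls of both were smallest in culture 1 and increased in the same order over cultures 2, 3 and 4 (-2.70, -4.01, -4.21 and -4.24 in Hp44g167), and those of Hp47g660 and Hp47g661 were also smallest in culture 1 (-2.58 and -2.66). In the pair Hp9g326b and Hp9g327 culture 1 had the largest fall of the one (-5.36) and the smallest of the other (-2.13). The remaining pairs were Hp15g820 and Hp15g821 and Hp25g224 and Hp25g225. Between the slide rows of cultures 1 and 2 and of cultures 3 and 4 the mean of Hp15g821 differed (-3.89 and -5.11), and so did that of Hp25g225 (-2.86 and -4.09).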

How the data were processed

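Two-colour Agilent arrays compared methanol and glucose RNA of 4 cultures, each on 2 arrays with exchanged dyes. The authors deposited the output of Agilent Feature Extraction 9.5.3.1 for every array. The processed signals that the authors deposited are intensities for each dye of a spot, made per their methods with spatial detrending in place of background subtraction and with dye normalization. A deposited value table gives log10 ratios, and its entries stand 5 positions from their identifiers and equal the log10 ratios of Feature Extraction after this shift; it served as an alternative. The probes were designed by the authors on open reading frames of the Rhein Biotech genome database and of NCBI sequences, and no positions are given here.

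The log2 ratio of processed methanol over processed glucose intensity was taken per spot. Spots marked as outliers were left out and saturated spots kept. Averages were taken over the 2 spots, then the 2 arrays of a culture, then the 4 cultures, and the culture is the replicate. Signals of a culture are geometric means. The background of calls came from limma 3.58.1 in R 4.3.3 (intercept per gene, empirical Bayes with 2.81 prior degrees of freedom, Benjamini-Hochberg adjustment over 5999 genes, more than 2-fold, adjusted p below 0.05, A-value of at least 6). The fit was also run on simulated ratios with known changes, drawn independently from normal distributions. These held no shared departure of a culture and no dye effect, so that the run cannot speak to either. Further tools were data.table (version 1.17.8), Python, pandas, numpy and matplotlib. Precision is limited by how few arrays there are. The glucose and methanol RNA of a culture are paired on each array, and the ratio keeps this pairing.

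The members, lists and limits were chosen with earlier results of these data known. The genes named are the 10 with the largest falls, up to 3 per functional group, the 3 with the largest and the 3 with the smallest SD, the 3 on each side of both limits, and those with a description, which are 27 members. A further 13 members were named after their values were seen. Runs of 3 or more consecutive numbers were to be named but do not occur. The functional groups by annotation text held at most 1 gene each, and promoter motifs were not searched, since no genome or annotation with these identifiers was used here.

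Alternatives were outlier spots kept, saturated spots left out, normexp with an offset of 50 and loess, loess on mean signals, median centring, the log ratios of Feature Extraction and of the deposited table, the arithmetic mean of the 16 spot ratios, either dye orientation alone, no A-value minimum or one of 8, probes well above background on every array, single slide rows and each culture left out. For the calls, trend and robust moderation, treat, unadjusted p, Cyber-T (window 101, weight 10), a row block and no replicate block were added. Columns of the authors' own p-values were not used.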

Additional observations from a re-analysis of the deposited data

Results flagged for a closer look

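A probe named AB-HpLEU2syn, which is not among the 5999 gene probes, gave a mean log2 signal of 10.42 on methanol and 11.46 on glucose, far above the probes for Bacillus subtilis genes, none of which passed 7.35 on glucose. Its log2 ratio was -2.94 in culture 1 and -0.34, -0.40 and -0.47 in cultures 2, 3 and 4, so that it fell short of the 10-fold limit in every culture. Among the 40 named members, culture 1 stood apart from the other 3 cultures in Hp25g200, Hp32g184 and Hp44g167, where the gap to the nearest culture was 0.863, 0.862 and 0.849 of the whole range of the log2 ratio. These 3 were named after their values were seen. Of all 196 genes 10 (5.10%) had such a gap in some culture, and chance alone gives about 1 in 20.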

How the results depend on the processing

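The group had 150 genes after normexp and loess, 158 after loess on mean signals, 179 with the arithmetic mean of spot ratios and 210 after median centring, against 196, and the first 3 of these held no gene from outside the 196. From arrays with glucose in Cy5 alone it had 212 genes, of which 192 were shared, and from those with methanol in Cy5 alone 183, of which 177 were shared. Without each culture in turn it had 180 to 201 genes, of which 177 to 187 were shared, and within the slide rows 191 and 219. The median log2 ratio of the 196 genes stayed between -4.22 and -3.87. Single genes moved more: of the 40 named members, 11 moved by more than their SD over cultures after normexp and loess, 8 after loess on mean signals and 6 with either dye orientation alone, none with a change of sign. After loess on mean signals Hp47g584, Hp19g33, Hp44g518 and Hp5g275 were at -2.97, -2.50, -2.44 and -3.06. After normexp and loess Hp15g821 was at -3.34 and Hp47g660 at -2.85, both less deep by over 1.5-fold. The number of genes called downregulated was lowest with treat (910, all among the 1283), 1258 to 1298 without each culture and 1286 with no replicate block, and no alternative moved it by over 1.5 times. The direction of the departure of culture 1 held in the bright and in the dim genes under the 13 alternatives in which it could be computed, which were chosen after seeing the data. In the bright genes it was -1.07 with glucose in Cy5 and -0.61 with methanol in Cy5. Promoter motifs and functional groups gave no value to vary. Signal over background limits the size of the ratio for the 20 genes that were not well above background on every methanol array. Ratios outside these 20 genes also depended on how background was handled. Hp12g280 and Hp5g275 were well above background on every array and came to -3.13 and -2.92 after normexp and loess.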
